A study of Homo sapiens with 10 samples.

Results

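The RNAs described here are the long noncoding, antisense and clone-named transcripts that carried a called m6A peak. The samples are given as V16A cells, a line of castration-resistant prostate cancer. The RNAs were chosen by name alone. A name was taken when it was MALAT1, NEAT1 or ABALON, when it began with LINC or SNHG and a number, when it had the form of a microRNA host gene, when it ended in -AS or -IT and a number, or when it was the name of a genomic clone beginning RP, CTA to CTD, AC, AL or XX. Of 5000 gene names in 7 peak lists, 458 (9.16%) met the rule, and 381 of these had a peak in at least 1 of 5 libraries. The other 77 were listed only for a condition as a whole. By name, 365 were clones, 65 antisense RNAs, 16 LINC RNAs, 6 snoRNA host genes (SNHG), 2 nuclear RNAs (MALAT1 and NEAT1), 2 microRNA host genes, 1 an intronic RNA (SOS1-IT1) and 1 was ABALON. Clone names with other beginnings, such as AP000769.1, fell outside the rule. All 458 are called noncoding names below, by the rule alone. Of them, 5 match RefSeq protein-coding genes, and the clone names have no RefSeq match to give their type.

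The data came from MeRIP-seq, which enriches RNA fragments holding N6-methyladenosine by immunoprecipitation and sequences them, with a part kept aside as input. Of 10 samples, all given as V16A cells, 5 were pulled down: 2 under hypoxia, 2 under normoxia and 1 labelled EU and 40 min. The last is read here as newly made RNA marked with ethynyl uridine. The labels give no oxygen level and no oxygen condition for the EU sample, and describe no genetic change or drug. Nothing in them says that replicates were separate cultures, so p-values over libraries measure no more than how far these libraries differed, which may be technical. Besides the 5 library lists there was 1 list for hypoxia and 1 for normoxia, here called the condition lists; the way they were made is not stated in the labels.

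m6A is the commonest internal modification of mRNA and is also placed on long noncoding RNAs. It is written in the nucleus, largely during transcription, by a complex around METTL3 and METTL14, and proteins that bind it affect splicing, export and decay. MALAT1 is retained in nuclear speckles and NEAT1 builds paraspeckles. Host genes carry snoRNAs or microRNAs within their transcripts, and antisense RNAs are read from the strand facing another gene. Clone names are placeholders for gene models that an annotation had not yet given a symbol.

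A few sequences place these RNAs before their values are given, all from RefSeq (GRCh38.p14). The only host genes of microRNAs in the lists were MIR210HG, whose miR-210 is a well known microRNA of the hypoxia response, and MIR22HG. Their mature products are shown 5′ to 3′ with the seed in capitals, and no seed was shared among them. The last sequence is the 300 bases around the start of VIM-AS1 (chr10:17229936-17230235, minus strand), an RNA that faces the vimentin gene VIM. Its capitals mark the first 50 bases of the RNA, which lay under a VIM-AS1 peak in hypoxia replicate 2, normoxia replicate 1, the EU library and both condition lists.
hsa-miR-210-3p: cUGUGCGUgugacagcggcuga
hsa-miR-210-5p: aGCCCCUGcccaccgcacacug
hsa-miR-22-3p: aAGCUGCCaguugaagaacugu
hsa-miR-22-5p: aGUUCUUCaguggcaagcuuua
VIM-AS1 start: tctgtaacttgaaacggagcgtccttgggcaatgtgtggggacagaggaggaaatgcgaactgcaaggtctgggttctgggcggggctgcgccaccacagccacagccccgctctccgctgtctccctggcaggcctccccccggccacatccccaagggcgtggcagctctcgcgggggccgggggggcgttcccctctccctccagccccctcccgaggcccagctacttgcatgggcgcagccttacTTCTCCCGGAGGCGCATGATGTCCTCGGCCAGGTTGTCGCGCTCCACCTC

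The lists differed widely in length. Peaks numbered 2879 and 6621 under hypoxia, 212 and 1563 under normoxia and 5044 in the EU library, replicate 1 before replicate 2 here and below. Of 14 prostate epithelial markers, these libraries listed 2, 4, 1, 5 and 8 in the same order, with FOXA1 in all 5. Of 14 T and NK cell markers, 8, 10, 4, 0 and 11 had one. Peaks in the T and NK markers summed to 19 and 20 under hypoxia, 6 and 0 under normoxia and 23 in the EU library. Those in the prostate markers summed to 5 and 9, 2 and 14, and 16 in the same order. These sums are not scaled for list length. CD4 had no peak in any list. Where the T and NK marker peaks came from, in samples given as a prostate cancer line, was not tested. Of 7 B cell and myeloid markers, only CD68 was listed, in the hypoxia condition list.

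Noncoding names were more numerous in the hypoxia lists, while their shares of the listed genes overlapped between the conditions. They numbered 87 and 162 in the hypoxia libraries, 9 and 73 in the normoxia libraries and 214 in the EU library. Counts of hypoxia and normoxia did not overlap, but hypoxia replicate 1 and normoxia replicate 2 lay close together. Hypoxia averaged 6.89 ± 0.63 and normoxia 4.68 ± 2.14 on the log2 scale (SD, n = 2 each), which is 2.21 apart, or 4.63-fold. The exact two-sided permutation test over libraries gave p = 0.333, the smallest that 2 against 2 allow, so no such comparison here could pass 0.05. Without normoxia replicate 1 the difference was 0.70 on the log2 scale, and with each library shortened to its 212 peaks of smallest p, the length of the shortest, it was 0.39.

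As a share of listed genes, noncoding names made up 6.92% and 7.53% under hypoxia and 6.47% and 8.14% under normoxia. The values of the 2 conditions overlapped, and the means differed by -0.0830 percentage points (7.22 ± 0.435% against 7.31 ± 1.18%, SD, n = 2; exact permutation p = 1). Without hypoxia replicate 1 the difference was 0.225 points, and without normoxia replicate 2 it was 0.749, both with hypoxia the higher. The EU library had the highest share of the 5, 8.96% with an exact binomial 95% interval of 7.84% to 10.2%, which covers counting error only.

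Counted by peaks instead of genes, the conditions lay farther apart. Noncoding names held 4.20% and 3.93% of the peaks under hypoxia and 7.08% and 6.91% under normoxia. The groups did not overlap (4.06 ± 0.195% against 6.99 ± 0.117%, SD, n = 2), the difference was -2.93 points, and the exact permutation test gave its smallest p, 0.333. With the libraries shortened in the same way, the difference was 0.708 points in the other direction. A noncoding name mostly carried a single peak: 69.0% and 60.5% of them did in the hypoxia libraries, against 40.9% and 28.3% of other names. In normoxia replicate 2 the shares were 67.1% and 52.4%, and in the EU library 65.4% and 43.4%. Normoxia replicate 1, with 9 noncoding names, went the other way, with 55.6% against 66.2%.

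**Figure D1:**
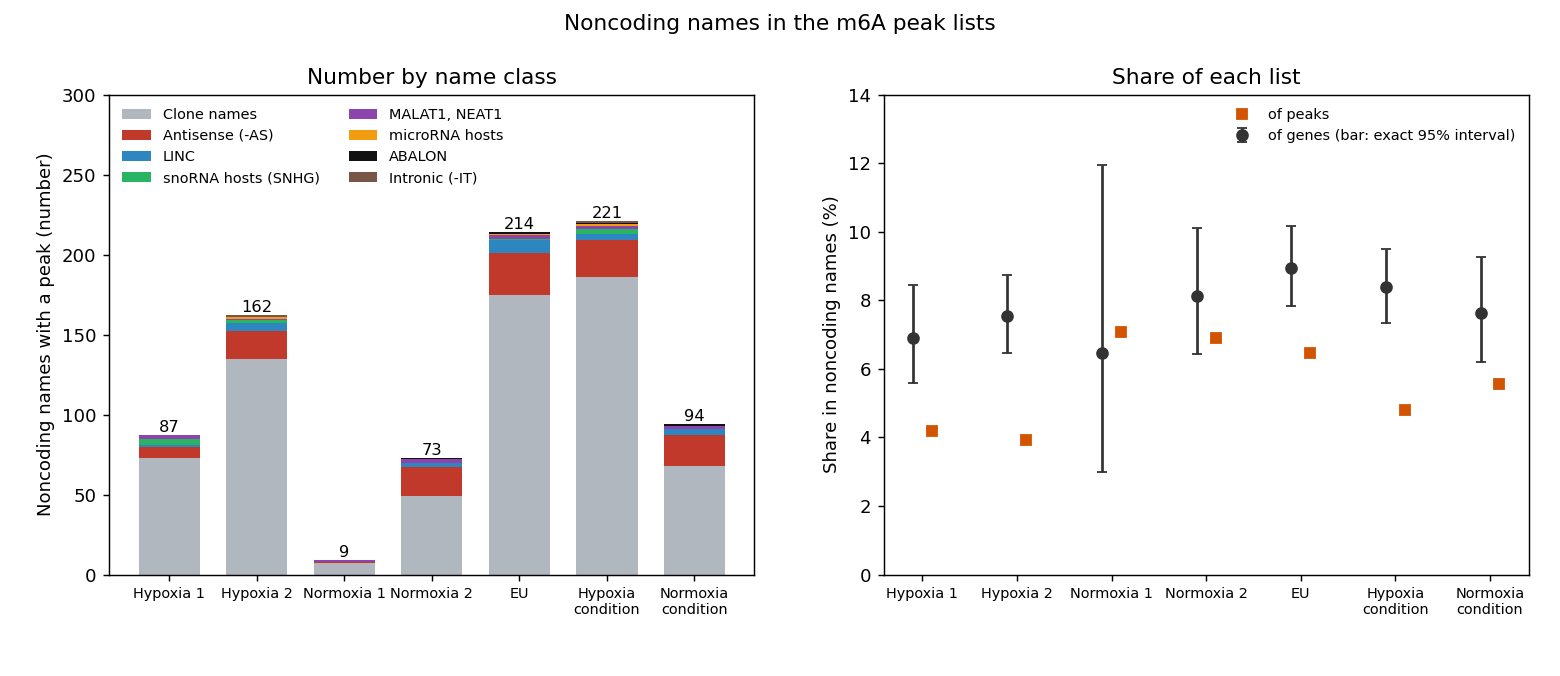
Left, the number of noncoding names with a peak in each list (bars, colours by name class, totals on top). Right, their share of listed genes (circles with exact 95% intervals) and of peaks (squares), in percent; the share of genes lies between 6.47% and 8.96% in all 7 lists, while the share of peaks is lowest in the 2 hypoxia libraries.

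MALAT1, the speckle RNA, was one of 3 noncoding names with a peak in all 5 libraries, and its peaks met at 1 place. The gene lies at chromosome 11, 65497738 to 65506516, on the plus strand (8779 bases). Peaks covered 477 bases in each hypoxia library, 148 and 344 in the normoxia libraries and 936 in the EU library. Both hypoxia libraries held the same 2 peaks to the base, at 65500100 to 65500547 and 65500291 to 65500576. Both hypoxia libraries were thus above both normoxia libraries, while the condition lists ran the other way, with 448 covered bases for hypoxia and 1104 for normoxia. The log2 difference was 1.08, or 2.11-fold, with an exact permutation p of 0.333 (n = 2 against 2), and without normoxia replicate 1 it was 0.47.

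The 148 bases that normoxia replicate 1 covered were covered in all 5 libraries. They lay at 65500291 to 65500398 and 65500537 to 65500576, which is 2553 to 2660 and 2799 to 2838 bases from the gene start, and 119 of them were in all 7 lists. The stretch between, 65500399 to 65500536, was under a peak in both hypoxia libraries and skipped between blocks in the other 3. The second peak of each hypoxia library skipped it as well, and both condition lists, that of normoxia included, had a peak over it. Normoxia replicate 2 and the EU library also shared a stretch that the hypoxia libraries lacked, 65500577 to 65500713. Of the 673 bases covered in any of the 4 hypoxia and normoxia libraries, 412 (61.2%) were covered in the EU library as well.

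The EU library covered 524 bases of MALAT1 that none of the other 4 did. Most lay in separate peaks upstream, at 65499355 to 65499600 (deposited p listed as 0), and downstream, at 65502781 to 65502979 (deposited p 0.00085). The downstream peak was overlapped over 197 of its 199 bases by a peak of AP000769.1 on the opposite strand in the same library. The normoxia condition list had the same pair of peaks there, with 97 shared bases.

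**Figure D2:**
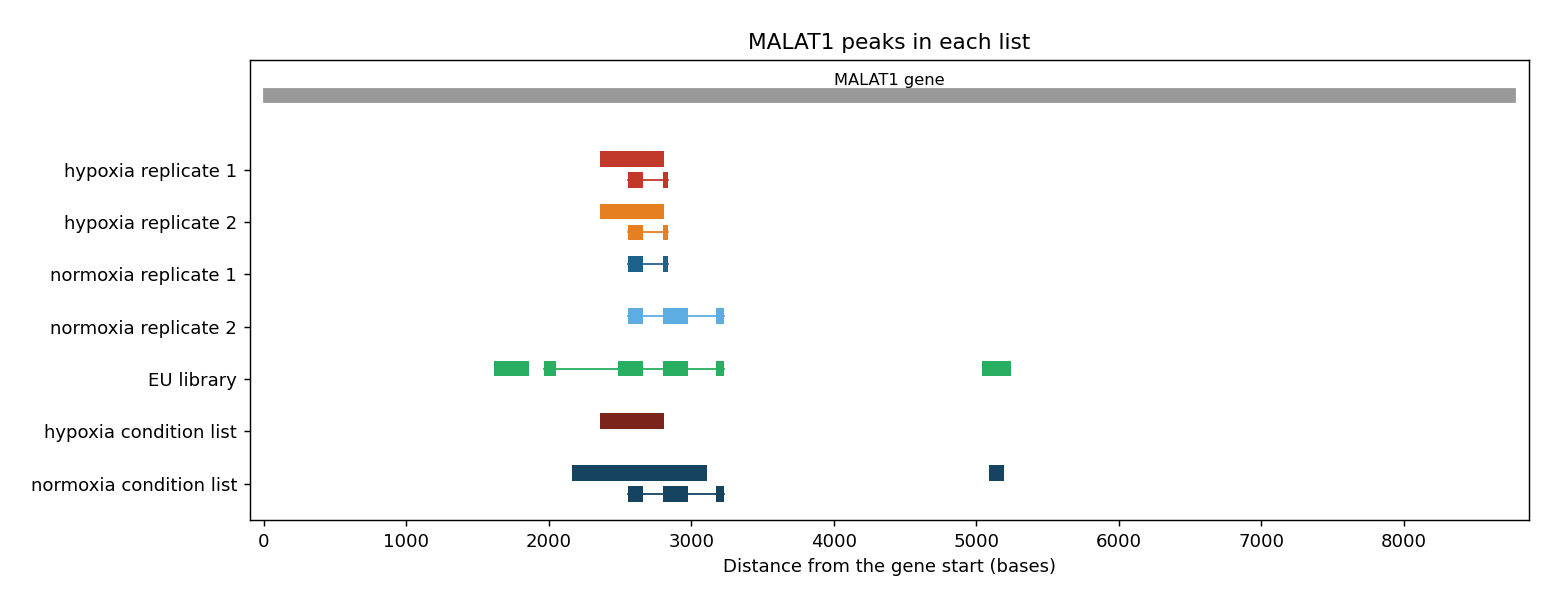
MALAT1 peaks by distance from the gene start in bases (horizontal), 1 row per list; boxes are covered blocks, thin lines join the blocks of 1 peak, and peaks that overlap in a list are drawn on separate levels. All 7 lists meet near 2553 to 2660 bases, and only the EU library and the normoxia condition list have a peak past 5043.

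NEAT1, the paraspeckle scaffold, had 1 peak in each of hypoxia replicate 1, normoxia replicate 2 and the EU library, and none in the other 2. All lay in the first part of the gene (chromosome 11, 65422798 to 65445540), at 65424289 to 65424436, 65424338 to 65424582 and 65424289 to 65424582, so the 3 overlapped. Of a list of 20 genes for proteins of speckles and paraspeckles, 6 and 9 had one under hypoxia, 0 and 2 under normoxia and 2 in the EU library. SRSF1, SRSF2, SRSF7, U2AF2 and SFPQ, 5 of the 11 found in these 4 libraries, had peaks in both hypoxia libraries and in neither normoxia library, beside 15.3% of all genes. The hypoxia lists were also the longer ones, with 1258 and 2151 genes against 139 and 897, and the part of list length in these counts was not tested.

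ABALON faces BCL2L1, which encodes the apoptosis regulator Bcl-x. It had 2 peaks in normoxia replicate 2, at chromosome 20, 31721848 to 31721995 and 31722092 to 31722190, and 1 in the EU library, at 31721751 to 31722434. Neither hypoxia library had a peak in it, whereas the hypoxia condition list had 2. The EU peak of 684 bases shared 643 bases with a peak of BCL2L1 on the opposite strand.

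snoRNA host genes were listed in hypoxia libraries and in no normoxia library. All 6 had a peak in a hypoxia library, but each in only 1 of the 2, so none was found in both. A peak in a hypoxia library and in no normoxia library was common, with 182 of the 259 noncoding names in these 4 libraries (70.3%) and 69.2% of all genes. SNHG16 had 2 peaks in hypoxia replicate 1, at chromosome 17, 76563164 to 76563263 and 76563412 to 76563561, and the first was also called in the EU library. SNHG1, SNHG3 and SNHG22 had 1 peak each in hypoxia replicate 1. SNHG12 had 3 peaks and SNHG5 had 1 in hypoxia replicate 2. The hypoxia condition list kept SNHG3, SNHG5 and SNHG12 and not the others. The SNHG3 peak also lay in the span of RCC1 on the same strand.

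The microRNA host genes each had a peak in 1 library. MIR210HG was listed in hypoxia replicate 2 alone, at chromosome 11, 567437 to 567585 on the minus strand (deposited p 2.8e-05), and in the hypoxia condition list at 567437 to 567536. That peak lay 504 bases from the miR-210 hairpin and 527 bases from the mature miR-210-3p printed above. MIR22HG had 1 peak, in the EU library, 978 bases from miR-22-3p, with a deposited p of 0.0026.

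LINC RNAs numbered 1 and 5 in the hypoxia libraries, 0 and 3 in the normoxia libraries and 8 in the EU library. Of 8 LINC RNAs in these 4 libraries, 5 were in hypoxia libraries, 3 in normoxia libraries and none in both, beside 15.4% of all genes in both. LINC00847 had 2 and 1 peaks in the hypoxia libraries and 1 in the EU library. All 3 libraries had a peak over chromosome 5, 180834451 to 180834598, and the other peak of hypoxia replicate 1 lay at 180831202 to 180831435. LINC00526 had 2 peaks in normoxia replicate 2, and EU had 1. LINC00998 and LINC00094 are protein-coding genes in RefSeq today, as SMIM30 and BRD3OS, so the old name does not give the present type. SOS1-IT1, named as an RNA within an intron of SOS1, had 2 peaks in hypoxia replicate 2 alone.

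Antisense RNAs took a larger share of the noncoding names in normoxia replicate 2 than in the other 4 libraries. There were 7 and 17 in the hypoxia libraries (8.05% and 10.5% of noncoding names), 1 and 18 in the normoxia libraries (11.1% and 24.7%) and 26 in the EU library (12.1%). The 11.1% is 1 of 9 names, and the difference was not tested. FGD5-AS1, of the antisense RNAs in 3 or more libraries the one with the most peaks in normoxia replicate 2, had 4 there, against 2 in hypoxia replicate 2, 1 in the EU library and none in the remaining 2. Its EU peak of 1096 bases, at chromosome 3, 14945150 to 14947177, ran over all 4 peaks of normoxia replicate 2. NCBP2-AS2, which RefSeq now lists as a protein-coding gene, had 2 and 1 peaks in the hypoxia libraries, 0 and 1 in the normoxia libraries and 1 in the EU library.

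Of the 65 antisense RNAs, 31 had a partner, the gene named before -AS, that was itself listed. In 21 both had a peak in the same library, and in 13 the peaks of the pair overlapped on opposite strands there. The labels do not say how reads were assigned to strands, so for these and every overlapping pair below the reads of the 2 strands cannot be told apart. MDC1-AS1 and MDC1, which encodes a DNA damage mediator, shared 144 bases in normoxia replicate 2 and 193 with EU. PSMB8-AS1 lies between genes of antigen processing. It had 1 and 2 peaks in the hypoxia libraries, none in the normoxia libraries and 3 in the EU library. Its main peak, at chromosome 6, 32845422 to 32845666 in hypoxia replicate 1, was overlapped by a peak of the peptide transporter gene TAP1 in all 3 libraries, and no overlap with its partner PSMB8 was called.

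VIM-AS1 was the antisense RNA that overlapped its partner in the most libraries, 4 of 5. VIM encodes vimentin, an intermediate filament protein of mesenchymal cells, and had 5 and 3 peaks in the hypoxia libraries, 2 and 0 in the normoxia libraries and 3 in the EU library. VIM-AS1 had 2 and 1, 2 and 0, and 1 in the same order, so both were missing from normoxia replicate 2. The VIM-AS1 peak of hypoxia replicate 2, at chromosome 10, 17229437 to 17229985, ended at the RNA's own start, the capitals of the sequence above, and all of its 549 bases were under a VIM peak. In hypoxia replicate 1 the shared length was 499 bases and in the EU library 598, again the whole VIM-AS1 peak. The deposited p of VIM-AS1 was the smaller of the pair in each of the 4, for example 1.6e-13 against 0.0026 in the EU library. The hypoxia condition list had the VIM-AS1 peak and no VIM peak.

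A clone-named RNA, RP11-124N14.3, faced VIM farther along. It had 1 peak in each hypoxia library, 2 in the EU library and none in either normoxia library. The hypoxia replicate 2 peak, at 17233560 to 17234833 in 2 blocks of 471 bases in all, had a deposited p listed as 0 and shared 187 bases with a VIM peak. The same end, 17234833, was called in hypoxia replicate 1 and the EU library.

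**Figure D3:**
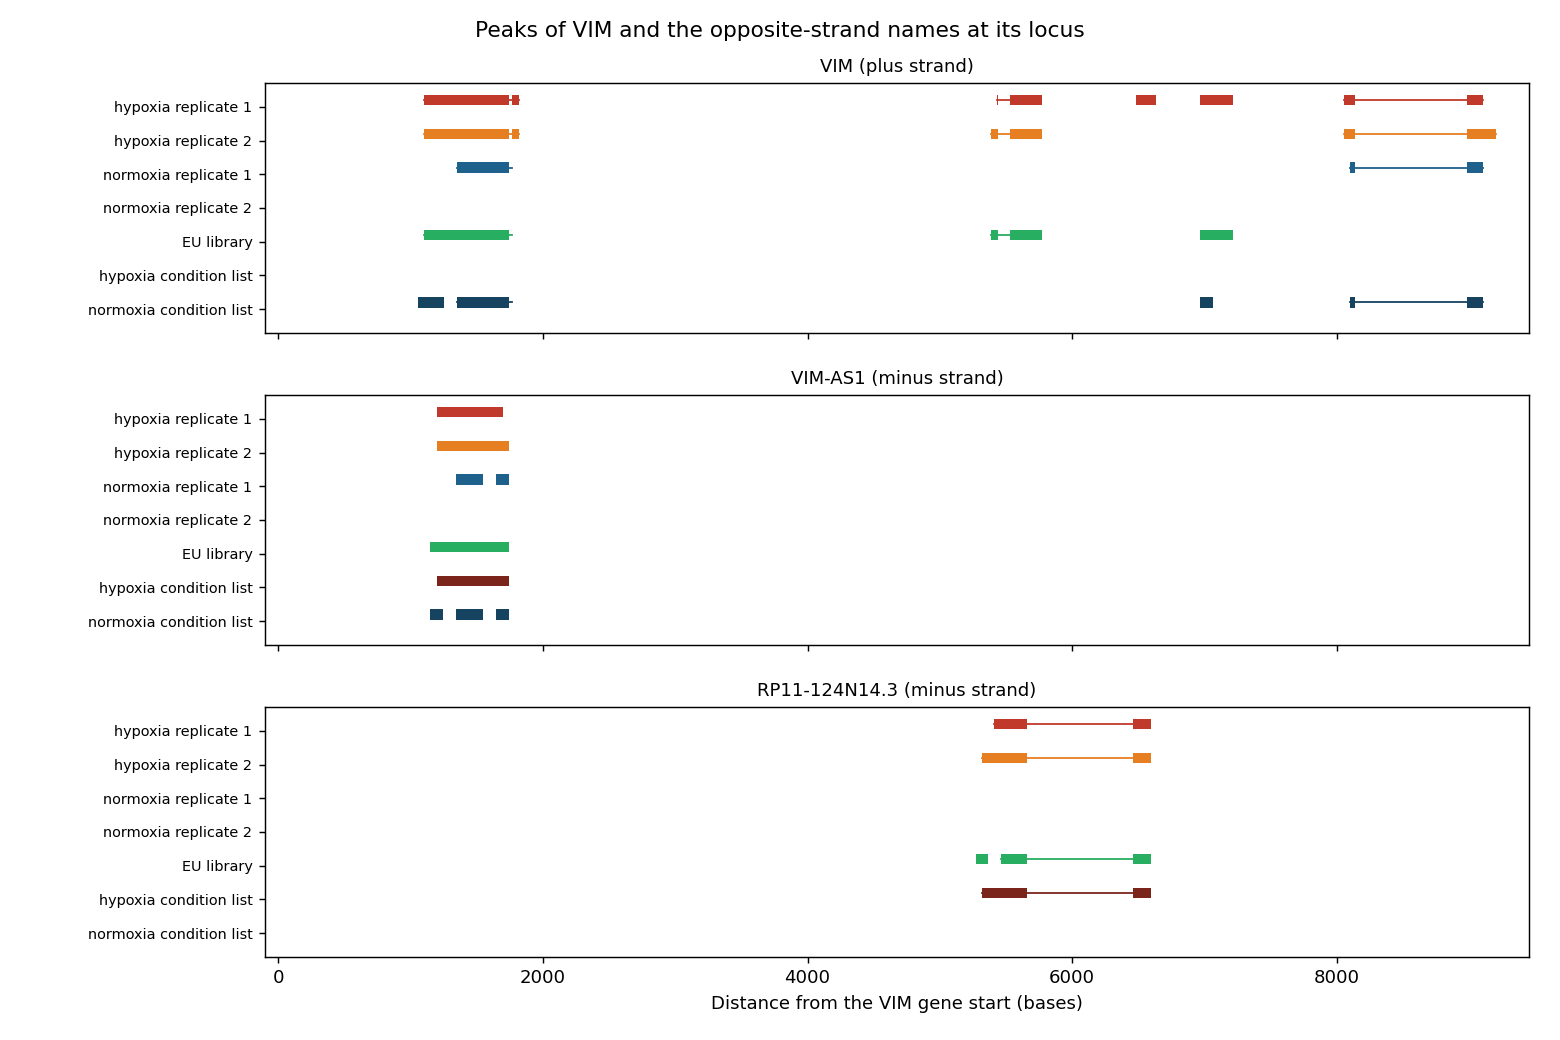
Peaks of VIM on the plus strand and of VIM-AS1 and RP11-124N14.3 on the minus strand, by distance from the VIM gene start in bases, 1 row per list; boxes are blocks and thin lines join the blocks of 1 peak. VIM-AS1 peaks lie under the first VIM peak in 4 libraries, and a VIM-AS1 peak far upstream of VIM in hypoxia replicate 1 is outside the plot.

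Clone names made up most of the noncoding names in every library, with 73 and 135 in the hypoxia libraries, 7 and 49 in the normoxia libraries and 175 in the EU library. None of the 365 matched a RefSeq symbol, so they are described by the coding genes at their peaks. Some may be coding models, since no type was available for them. Of the 304 with a library peak, 120 had one inside the span of a coding gene on the same strand, and another 115 inside a coding span on the opposite strand only. Strand was known for 82.5% of coding genes. Where the reference gave none, it was taken from the peak lists, so those genes have a strand only if they were listed. A peak named for a clone on the strand of a coding gene can hold reads of that gene, and the 2 cannot be told apart here.

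RP1-34B20.21 was the clone name with a peak in all 5 libraries that is described here; a second one, on chromosome Y, is not. It had 2 peaks in each of the hypoxia libraries and in normoxia replicate 1, and 1 in each of the others. The peaks lay around chromosome 6, 26196911 to 26197109 and 26199045 to 26199144, on the strand of the histone genes H2AC7 and H3C4. Histone genes have near-identical copies, so these reads may belong to several loci.

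Of the clone names in 4 libraries, 3 faced coding genes whose peaks they overlapped. CTC-250I14.6 faced IER2, an immediate early gene, with 2 and 1, 0 and 1, and 1 peaks in the hypoxia, normoxia and EU libraries. RP11-442H21.2 faced DDIT4, a stress-induced inhibitor of mTORC1 signalling, with 1 and 1, 0 and 2, and 1. RP4-781K5.2 faced IRF2BP2, a transcriptional corepressor, with 1 and 1, 0 and 1, and 1. All 3 were thus found in both conditions, and each overlapped a peak of the facing gene in normoxia replicate 2, hypoxia replicate 2 and the EU library. In the EU library RP11-442H21.2 shared all 498 of its bases with DDIT4.

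**Figure D4:**
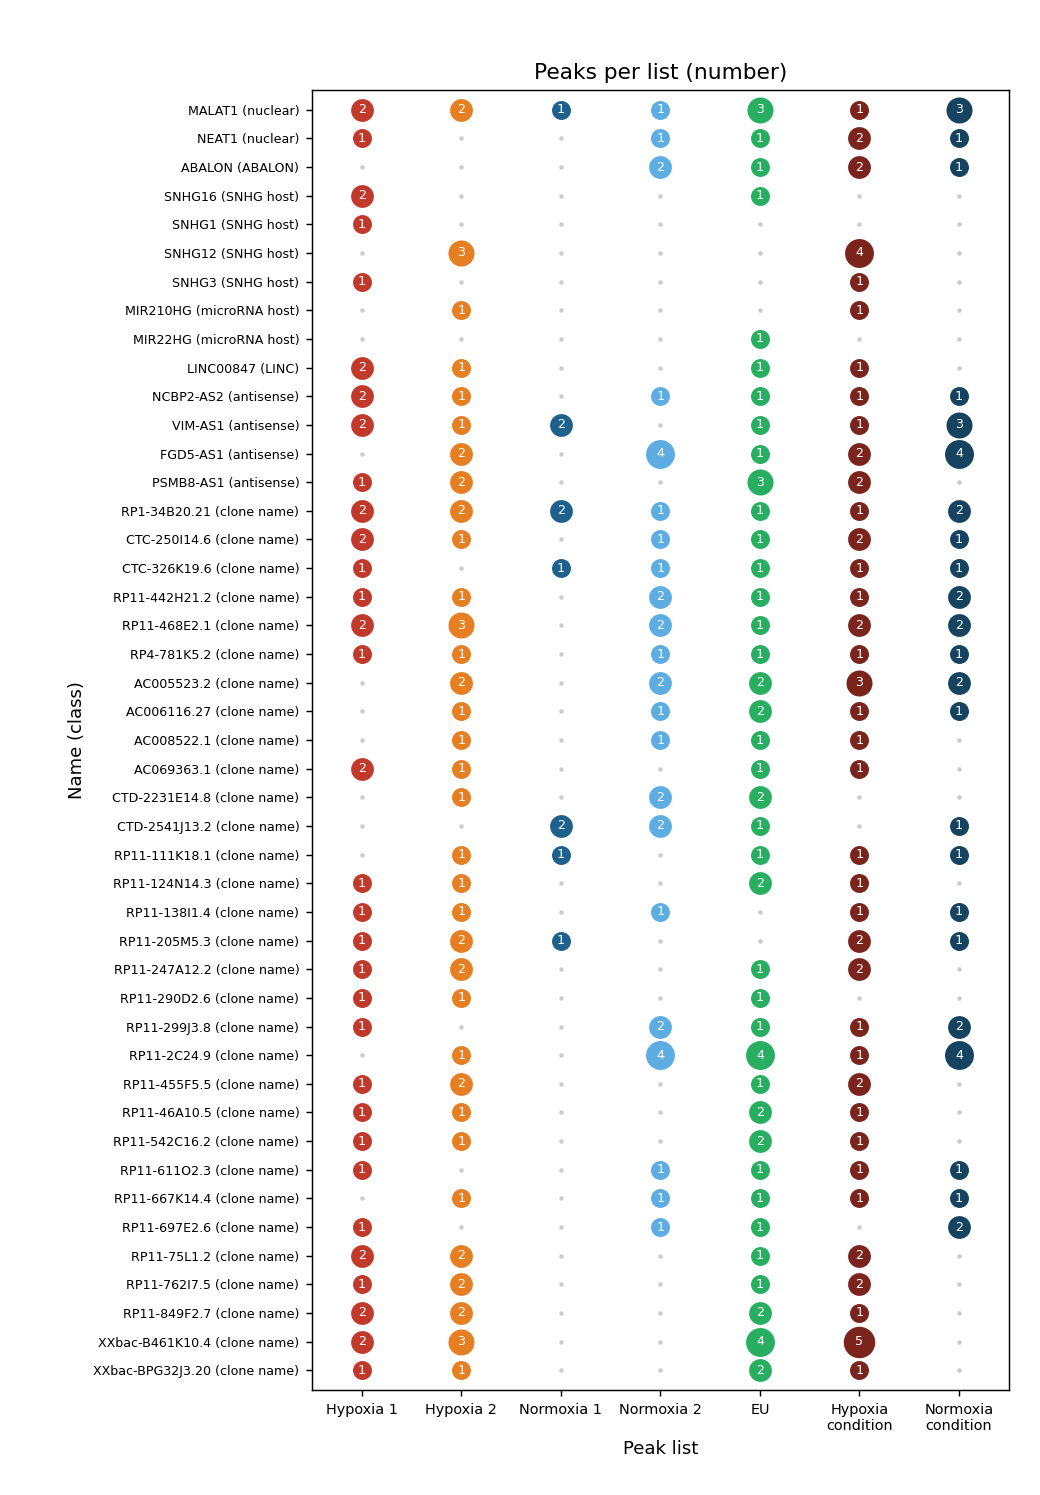
Number of peaks (printed in each dot, dot area growing with it) of 45 noncoding names in the 7 lists: those with a peak in 3 or more libraries and the named nuclear, host and ABALON RNAs, ordered by class. Small grey dots mark no peak; the normoxia replicate 1 column is nearly empty, and the 4 snoRNA host genes shown have no dot in a normoxia list.

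Peaks of noncoding names were overlapped by opposite-strand peaks of the same library more often than other peaks were. The shares were 16.5% and 20.4% in the hypoxia libraries, 13.3% and 17.6% in the normoxia libraries and 23.3% in the EU library. Among all other peaks they were 1.31%, 1.32%, 2.54%, 2.06% and 2.48% in the same order. The difference was 16.3 ± 3.88 percentage points (SD, n = 5 libraries), positive in 5 of 5, with an exact sign-flip p of 0.0625, the smallest that 5 libraries allow. The choice of names builds much of this in, since -AS names are given for facing a gene. In these libraries, 30.6% to 40% of noncoding-name peaks lay only opposite a coding span, against 0.363% to 2.03% of other peaks. Clone names share this position (115 of 304), so taking them alone does not remove it. The test therefore cannot separate the overlap from the choice of names. Clone names alone gave 16.7%, 19.2%, 0%, 22.9% and 24.0%, where the 0% is 0 of 12 peaks in normoxia replicate 1. In all, 102 of 381 names had such a peak, and 57 had a peak overlapped by another name on the same strand.

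By position, noncoding names lay inside a coding span of the same strand in 55.4% and 42.7% of peaks in the hypoxia libraries, 26.7% and 25.9% in the normoxia libraries and 30.1% in the EU library. Both hypoxia libraries were above the other 3, and 2 against 2 could not pass a test. For other names, which are mostly the coding genes themselves, the share was 95.9% to 97.9%. The coding gene was often listed in the same library. Where a noncoding name lay only on the strand facing a coding gene, that gene had a peak of its own in 69.0% and 64.2% of cases in the hypoxia libraries, 45.5% in normoxia replicate 2 and 63.5% for EU. Where it shared the strand, the figures were 27.1%, 43.3%, 50% and 50.8%. Of all 20056 coding genes, 5.92%, 10.2%, 4.25% and 11.0% had a peak in these 4 libraries. Normoxia replicate 1 had 7 such names in all, with 1 coding gene listed. The share over all coding genes is not a like comparison. It takes in genes that may have no RNA in these cells. A noncoding name also counted when any of the coding genes at its peaks was listed.

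**Figure D5:**
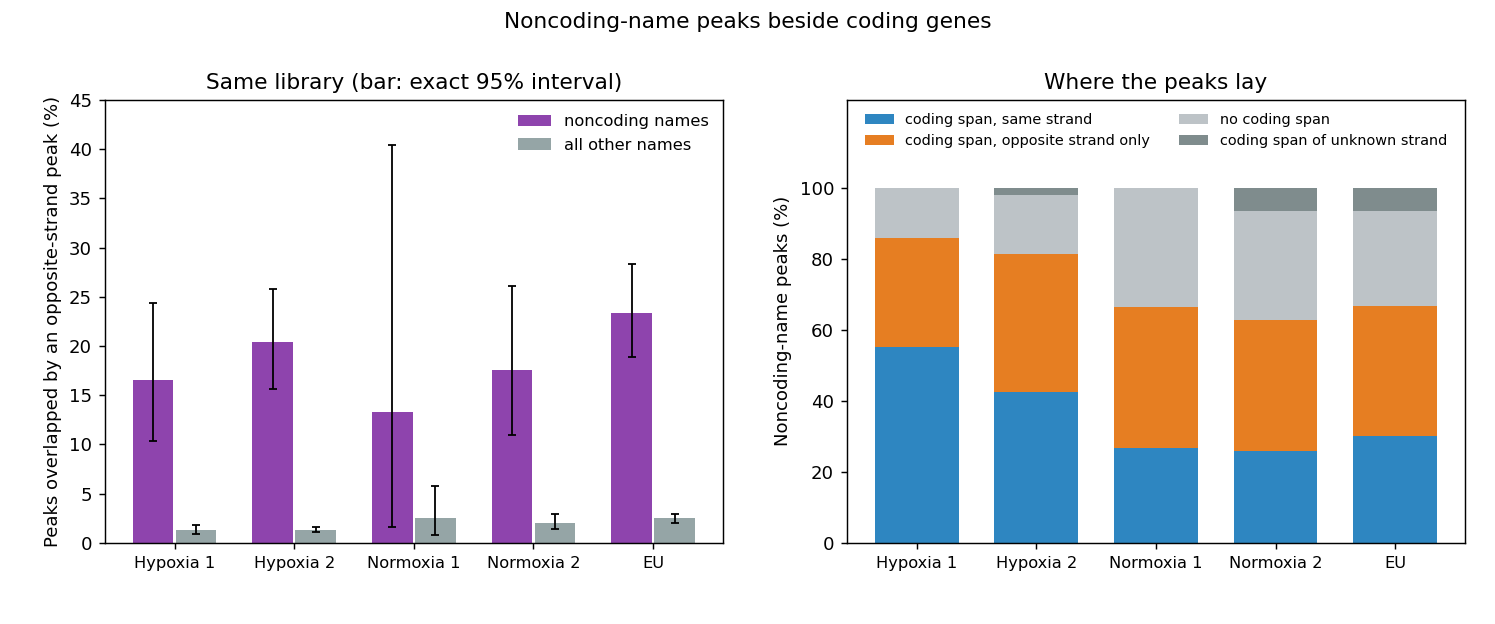
Left, the percent of peaks overlapped by an opposite-strand peak in the same library, for noncoding names (purple) and all other names (grey), with exact 95% intervals; the purple bar is the higher in 5 of 5 libraries. Right, the percent of noncoding-name peaks in the span of a coding gene on the same strand, on the opposite strand only, in none, or in one of unknown strand.

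Of the 259 noncoding names in the 4 hypoxia and normoxia libraries, 29 had a peak in both hypoxia libraries and in neither normoxia library. That is 11.2% (exact binomial 95% interval 7.63% to 15.7%), beside 15.3% of all 3226 genes and 15.6% of the others. The interval holds the background, but it covers counting error only and takes names as independent, though some share a locus. Names were counted, so the peaks of a name need not share a site in both libraries, and those of XXbac-B461K10.4 did not. Of the 29, 27 were clone names, with PSMB8-AS1 and LINC00847. Leaving out a hypoxia library asks for a peak in the other hypoxia library only, so the count cannot fall. It was 140 without hypoxia replicate 1 and 71 without hypoxia replicate 2. It was 2 with each library shortened to 212 peaks.

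All 29 lay in a coding span, 19 on the same strand and 10 on the opposite strand only. Over all 458 noncoding names these numbers were 150 and 177. In 15 of the 29 a coding gene there had a peak in both hypoxia libraries. In 11 of these no coding gene there had one in a normoxia library. Such counts were not made for the other names, so they do not set the 29 apart. RP11-603J24.9, within PA2G4, had 1 peak in each hypoxia library, with deposited p of 6.8e-06 and 2.3e-09. RP11-290D2.6 faced TPT1, an abundant growth-related mRNA, and had 1 peak in each and 1 in the EU library.

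Some of the 29 lay at genes known from leukocytes. They were grouped so after their values were seen, and the grouping has no test. Others of the 29 lay at genes not grouped so, such as ABHD16A, RPL26, GPS2, STX6, MICAL3, SARNP and IPO4. No share of such genes was counted among the 29, the other noncoding names or all genes. AC069363.1 faced CCL3, a chemokine gene, with 2 peaks in hypoxia replicate 1, 1 of 829 bases in replicate 2 and 1 in the EU library. RP11-264B17.3 lay in the spans of LAT, an adaptor of the T cell receptor, and SPNS1, with 2 and 3 peaks. RP11-455F5.5 faced CORO1A, an actin regulator of leukocytes, with 1 and 2. XXbac-BPG246D15.9 lay at the antigen presentation genes HLA-DOB and TAP2, with 2 and 2, and was the 1 name of the 29 with peaks in the normoxia condition list, where it had 2. RP11-75L1.2 lay within CLEC2D, a ligand of an NK cell receptor, with 2 and 2. RP11-404F10.2 (CD48) and CTD-2370N5.3 (EVI2B) were chosen for mention in the same way. As given above, T and NK cell markers had 19 and 20 peaks under hypoxia against 6 and 0 under normoxia. Prostate markers had 5 and 9 against 2 and 14. The lists held 2879 and 6621 peaks against 212 and 1563, so these sums do not compare the conditions at equal length. The part of T and NK cell RNAs in these calls was not tested.

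The reverse pattern, a peak in both normoxia libraries and in neither hypoxia library, was found in 1 noncoding name, beside 0.155% of all 3226 genes. CTD-2541J13.2, which faces DSEL, had 2 peaks in each normoxia library and 1 in the EU library. On chromosome 18, the replicate 1 peak at 67513142 to 67513241 overlapped the replicate 2 peak at 67513192 to 67513389. Without normoxia replicate 1 the count was 49, but a peak in 1 normoxia library is then enough, so the count cannot fall. Normoxia replicate 1 had only 9 noncoding names. The condition lists gave 60 of 281 names in normoxia and not hypoxia (21.4%, beside 20.3% of all genes) and 187 in hypoxia and not normoxia (66.5%, beside 62.8%). These lists held names that their own replicates lacked: 71 of 221 in hypoxia (32.1%, beside 26.5% of all genes) and 36 of 94 in normoxia (38.3%, beside 42.9%).

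Noncoding names were seldom shared by libraries. Of 381, 269 had a peak in 1 library, 73 in 2, 29 in 3, 7 in 4 and 3 in 5. Within the 4 hypoxia and normoxia libraries, 202 of 259 (78.0%) were in 1 only, beside 69.2% of all genes, and 3 were in all 4, beside 0.62%. Hypoxia replicates shared 40 names, which is 46.0% of those of replicate 1 and 24.7% of those of replicate 2, beside 54.2% and 31.7% over all genes. Normoxia replicate 2 shared 41 names with the EU library, 56.2% of its own and 19.2% of the EU names, beside 64.2% and 24.1% over all genes. Peak by peak, 42.1% of the 121 noncoding peaks of hypoxia replicate 1 were overlapped by a peak of replicate 2 on the same strand (exact 95% interval 33.2% to 51.5%), beside 47.4% of all its peaks.

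The EU library, the 1 library labelled for a time of 40 min, held 122 noncoding names that none of the other 4 listed. That is 32.0% of the 381 (exact 95% interval 27.4% to 37.0%), beside 25.4% of all 4327 genes with a library peak and 24.8% of the others. With 1 EU library there is no replicate check, and the interval covers counting error only. Of the 122, 15 had a peak in a condition list, which leaves 107. Of the 122, 100 were clone names, 15 antisense RNAs, 6 LINC RNAs and 1 was MIR22HG. A coding span of the same strand held 25 of them and one of the opposite strand only another 41, while 56 lay at no coding gene of known strand. AC003006.7 had the smallest deposited p, 4e-12, at chromosome 19, 57753330 to 57753575, within ZNF776. RP11-805J14.5 faced FADD, an adaptor of death receptors, and shared 575 of its 626 bases with a FADD peak, and it had 2 peaks in the hypoxia condition list. CIRBP-AS1, facing the cold-inducible RNA-binding protein gene, had 1 peak with a deposited p of 7.6e-09. Conversely, of the 259 names in those 4 libraries 92 (35.5%) were in the EU library too, beside 39.9% of all such genes, and of the 29 hypoxia-only names 14 (48.3%) were, beside 43.5%.

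Median widths of noncoding peaks lay only slightly below those of other peaks, except in normoxia replicate 1 with its 15 noncoding peaks. Their median covered length was 148 and 149 bases in the hypoxia libraries, 101 and 141 in the normoxia libraries and 194 in the EU library, against 150, 151, 150, 150 and 199 for other names. Peaks of more than 1 block made up 40.5% and 35.4% of noncoding peaks in the hypoxia libraries, 13.3% and 11.1% in the normoxia libraries and 19.9% in the EU library, against 35.7%, 36.7%, 31.0%, 9.83% and 19.8%. At gene starts, 32 noncoding names had a peak on a RefSeq start window of their strand, from 250 bases before to 50 after the start, and in 4 the window was that of the gene of the same name. GGACT, a frequent m6A context, searched on both strands, was in 11 of the 38 windows under such peaks (28.9%) and in 44.1% of all 34943. The VIM-AS1 window printed above held none. Of each window, 250 bases lie before the start, and a shared length of 1 base was enough. These shares therefore do not describe the sequence of the peaks themselves, and cannot show their m6A context.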

How the data were processed

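MeRIP-seq peak lists of 5 pulled-down libraries and 2 conditions were used; the 5 inputs had no list of their own here. The submitters' processing notes name STAR and hg38, without versions. Which peak caller and threshold were used, how inputs and strand entered, and which annotation gave the names are points not given in the sources used here. All lists had 12 BED columns, with the gene name in column 4. Column 5 (0 to 0.013) has no header and was taken as the authors' deposited p-value. Reads were not used, so depth is unknown, and a missing peak shows neither absent m6A nor absent RNA.

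Starts were moved by 1 base. Peaks were compared block by block and by strand, with an overlap of at least 1 base, in Python 3.11.15, pandas 2.3.3 and SciPy 1.17.1, tested on simulated lists. Of 93 names that were not clones, 91 matched the RefSeq table of GRCh38.p14 by name. Exons were not used, so no peak is called exonic or intronic. Libraries were compared by exact permutation and sign-flip tests, two-sided. Names were described by a rule: MALAT1, NEAT1 and ABALON, names in 3 or more libraries, up to 10 hypoxia-only and 10 normoxia-only, up to 4 per class, up to 8 found in the EU library alone and up to 8 antisense RNAs listed with their partner, by smallest deposited p. The counts of the other names are given in sums, and those named outside the rule are SNHG5, SNHG22, LINC00094 and, where stated, 2 clones. Some names that the rule takes are not reported here. The rule, the members and the lists were chosen with earlier results of these data known. Alternatives kept the 50% of peaks of smallest p or the wide peaks, shortened lists, used the condition lists, left out classes or each replicate, or used the replicate number as a block.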

Additional observations from a re-analysis of the deposited data

How the results depend on the processing

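Of 65 alternatives to 9 results, 6 reversed a direction and 11 moved a count by over 1.5 times. Leaving out a replicate relaxes the hypoxia-only and normoxia-only rules, so by construction those counts cannot fall. The cause of the other changes was not tested. No 2-against-2 test could pass 0.05 under any setting, so the side of the threshold says nothing of stability. The log2 difference in noncoding names (2.21) was 0.39 with shortened lists. The difference in share of genes (-0.0830 points) was near 0 and reversed to 0.621 with only the wider peaks kept (the median and above), 4.39 with shortened lists and 0.249 without chromosome Y (chosen after seeing the data), and ran from -0.915 to 0.749 with 1 replicate left out, reversing without hypoxia replicate 1 (0.225) and without normoxia replicate 2 (0.749). The difference in share of peaks (-2.93) reversed to 0.708 with shortened lists, chosen after seeing the data. The 29 hypoxia-only names became 11 with the 50% of peaks of smallest p, 18 with wide peaks, 2 with shortened lists and 187 by the condition lists, and ran from 31 to 140 with 1 replicate left out. The 1 normoxia-only name became 0 with the 50% of peaks of smallest p and 60 by the condition lists, and ran from 1 to 49 with 1 replicate left out.

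In a fit that took the replicate number for a block, the 4 differences were 2.21, -0.0830, -2.93 and 1.08, the values without it by construction. With 2 pairs the smallest p is 0.5, so none could pass. The correlation of replicate differences between conditions was -0.105 over 3226 genes, and with the numbers crossed, chosen after seeing the data, 0 of 4 passed, which the same limit fixes. MALAT1 with the 50% of peaks of smallest p gave no value, since a library then had no MALAT1 peak. The numbers of libraries, 2 a condition and 1 of EU, and the 212 peaks of normoxia replicate 1 limit every comparison.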

Other observations

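Noncoding RNAs whose names fell outside the rule gave few peaks. Of a list of 31, 5 had a peak in any list: TUG1, NORAD, TERC, JPX and HCG18. TUG1, a long noncoding RNA of nucleus and cytoplasm, had 1 and 0 peaks in the hypoxia libraries, 0 and 6 in the normoxia libraries and 7 in the EU library. NORAD, which binds Pumilio proteins, had 2 and 1, 0 and 2, and 1. TERC, the RNA of telomerase, had 1 peak in hypoxia replicate 2, and JPX had 2 in hypoxia replicate 1. The TUG1 peaks were thus most numerous in normoxia replicate 2 and the EU library, which was also so for the antisense RNA FGD5-AS1 in normoxia replicate 2 alone.

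Peaks of 1 name often shared a single deposited p. Among noncoding names with 2 or more peaks in a library, 12 of 27 and 27 of 64 had the same p on every peak in the hypoxia libraries, 3 of 4 and 12 of 24 in the normoxia libraries and 40 of 74 in the EU library. The shares were 44.4%, 42.2%, 75%, 50% and 54.1%, beside 22.1%, 26.0%, 25%, 38.3% and 45.4% of other names. Where 1 p is shared, it does not rank the peaks of that name.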
